A study of Mus musculus with 9 samples.

Results

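The 10 serotonin receptor genes Htr1a, Htr1b, Htr1f, Htr2a, Htr2c, Htr3a, Htr4, Htr5a, Htr5b and Htr7 were taken by name from the RNA-seq counts of mouse ventral hippocampus, out of 40213 genes in the files. All 10 passed the filter on low counts, which left 16106 genes for testing. The 9 libraries came from wild-type male C57BL/6J mice, 3 in each of 3 groups and all of 1 batch. SUS_LE mice were stress-susceptible after restraint in tubes for 2 hours a day over 14 days and then ran on a treadmill at low intensity for 2 weeks. SUS mice were stress-susceptible after the same restraint and stayed sedentary. SED mice were sedentary and are labelled as untreated. The mice were 8 weeks old when they were acclimated. The method of scoring susceptibility and the delay between the last session and dissection are not given in the sources used here.

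Serotonin reaches the hippocampus along axons of raphe neurons in the brainstem, so the receptors are made locally while most of the synthesis machinery is not. The Htr1 receptors and Htr5a couple to Gi/o proteins, which lower cAMP and open potassium channels, the Htr2 receptors couple to Gq and phospholipase C, and Htr4, Htr6 and Htr7 couple to Gs, which raises cAMP. Htr3a is different in kind, being the subunit of a cation channel that serotonin opens directly. Htr2c is made by neurons and, at high level, by the epithelium of the choroid plexus, a secretory tissue that floats in the ventricle beside the hippocampus.

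The members' levels are read below against choroid plexus content, so the promoters of Htr2c and Htr2a, the members with the steepest relation to it, are shown here. Each is 300 bases from RefSeq on GRCm38.p6, read 5′ to 3′ on the gene's strand, with 250 bases before the start of the gene and 50 after it. The Htr2c promoter lies at chrX:146962263-146962562 on the plus strand and the Htr2a promoter at chr14:74640624-74640923 on the plus strand. Capitals mark a CCAAT box.
Htr2c: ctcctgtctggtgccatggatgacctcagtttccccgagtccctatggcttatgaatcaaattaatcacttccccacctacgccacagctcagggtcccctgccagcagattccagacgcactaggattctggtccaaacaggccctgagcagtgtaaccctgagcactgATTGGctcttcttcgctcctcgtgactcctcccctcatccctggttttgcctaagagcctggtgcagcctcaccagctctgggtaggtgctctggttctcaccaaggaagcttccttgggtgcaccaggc
Htr2a: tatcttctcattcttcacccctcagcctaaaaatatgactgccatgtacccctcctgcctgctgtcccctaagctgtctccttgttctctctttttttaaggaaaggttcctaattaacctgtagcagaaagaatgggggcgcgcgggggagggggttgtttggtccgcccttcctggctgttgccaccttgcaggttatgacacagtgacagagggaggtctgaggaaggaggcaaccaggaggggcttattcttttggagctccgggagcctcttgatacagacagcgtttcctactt
The Htr2c promoter held 1 CCAAT box, as its reverse complement ATTGG at position 171 from the 5′ end, and the Htr2a promoter held none. The box stood on either strand in 37.4% of 32851 promoters of the same length. The core motif TAATCC of OTX2, a transcription factor of choroid plexus, was in neither window, and in 7.06% of the promoters. Promoters were found for 7 of the 10 members. Of these, Htr1b also held CCAAT boxes, 2 in number, and none held the OTX2 core. The promoters of the choroid plexus markers Kl and Kcnj13 did not hold the OTX2 core either.

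Library totals ran from 14172344 to 15582304 counts. Levels are given as CPM, counts scaled to library size, and as mean ± SD of 3 mice. Neuronal markers stood at a summed 8292 to 9140 CPM in SUS_LE, 8122 to 9105 CPM in SUS and 8152 to 8491 CPM in SED, and all 6 passed the filter, as did all 10 dentate granule cell and all 8 CA1 pyramidal cell markers. Choroid plexus content did not follow the groups evenly. Ttr, the thyroid hormone carrier that choroid plexus makes in bulk, was at 83.2, 1509 and 59.6 CPM in SUS_LE mice 1 to 3, at 27.4, 2659 and 6085 CPM in SUS mice 1 to 3, and at 4310, 3543 and 2935 CPM in SED mice 1 to 3. SUS_LE 1, SUS_LE 3 and SUS 1 were thus far below the other 6 libraries. Beside Ttr, the defining markers Folr1, a folate receptor, and Kl, the co-receptor Klotho, were at 0 in no library. In SUS 1 they were at 0.481 and 17.0 CPM.

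Levels of different genes were compared per kilobase of exon, using GRCm38 exon lengths. Htr2c had the highest mean, 7.41 ± 2.09 CPM per kb over the 9 libraries, followed by Htr1a at 6.68 ± 0.789, Htr4 at 5.08 ± 0.644 and Htr3a at 3.66 ± 0.443 CPM per kb. Htr7 (2.69 ± 0.249), Htr5a (2.60 ± 0.387), Htr5b (1.93 ± 0.285) and Htr1b (1.68 ± 0.238) formed a middle range, and Htr2a (0.816 ± 0.230) and Htr1f (0.628 ± 0.183) were lowest on the same scale. The group means of the first 2 changed places. Htr2c averaged 6.03 ± 1.05 CPM per kb in SUS_LE, 7.51 ± 3.24 in SUS and 8.69 ± 0.673 in SED, where Htr1a averaged 6.82 ± 0.743, 6.58 ± 1.01 and 6.65 ± 0.929 CPM per kb, so that the mean of Htr2c was below that of Htr1a in SUS_LE and above it in SUS and SED. Neighbours in the order overlapped in their ranges over 9 libraries, except Htr1b and Htr2a. Within single libraries the order was steadier. Htr1a was above Htr4, Htr4 above Htr3a, and Htr3a above Htr7 in 9 of 9 libraries, whereas Htr2c was above Htr1a in 6 of 9 and Htr7 above Htr5a in 5 of 9. Htr2c was below Htr1a only in SUS_LE 1, SUS_LE 3 and SUS 1, the libraries lowest in Ttr. In SUS_LE 2 it was above, at 7.21 against 6.69 CPM per kb, so the order of these genes followed Ttr and not the group.

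**Figure D1:**
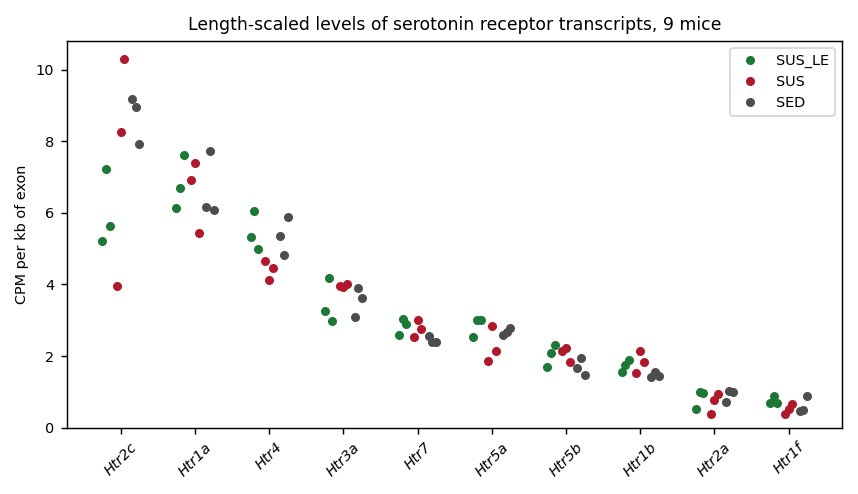
Level of each serotonin receptor transcript in CPM per kb of exon (vertical axis), 1 point per mouse, with the 3 groups side by side for each gene and genes ordered by their mean over 9 libraries. Htr2c had the highest mean (7.41 CPM per kb) and spread from 3.96 to 10.3 CPM per kb, while Htr1f had the lowest mean (0.628 CPM per kb).

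No member passed the threshold of 0.05 for any pair of groups or over the 3 groups together, in edgeR's quasi-likelihood test with Benjamini-Hochberg adjustment over all 16106 genes, where 0% of genes were called in every comparison. At an unadjusted p under 0.05, there were 2 of 10 members for SUS against SED, beside 13.1% of all genes, 2 of 10 for SUS_LE against SUS, beside 13.7%, and 0 of 10 for SUS_LE against SED, beside 6.64%. DESeq2 called 0 members in each comparison and 4.51%, 3.57% and 0.0994% of the genes to which it gave an adjusted p. Its filter gave one to only 1, 1 and 10 of the members, and its unadjusted p was under 0.05 for 1, 2 and 0 of them. The groups did not overlap for 2 of 10 members in SUS against SED (18.3% of all genes), with Htr3a higher in SUS, as were 9.72% of genes, and Htr4 lower, as were 8.56%. They did not overlap for 2 of 10 in SUS_LE against SUS (17.0%), where Htr1f and Htr4 were higher in SUS_LE, as were 8.61% of genes, and 8.38% were lower. In SUS_LE against SED they did not overlap for 3 of 10 (16.2%), with Htr1b and Htr7 higher in SUS_LE, as were 7.54% of genes, and Htr2c lower, as were 8.64%. The members' median log2 fold change was -0.11, 0.05 and 0.06 in the 3 comparisons in that order, with 4, 6 and 7 of 10 positive, against 49.9%, 50.3% and 52.9% of all genes. Each pair of these comparisons has 1 group of libraries in common. In bulk tissue, fewer cells of a type and less RNA per cell cannot be told apart, and this applies to every member.

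**Figure D2:**
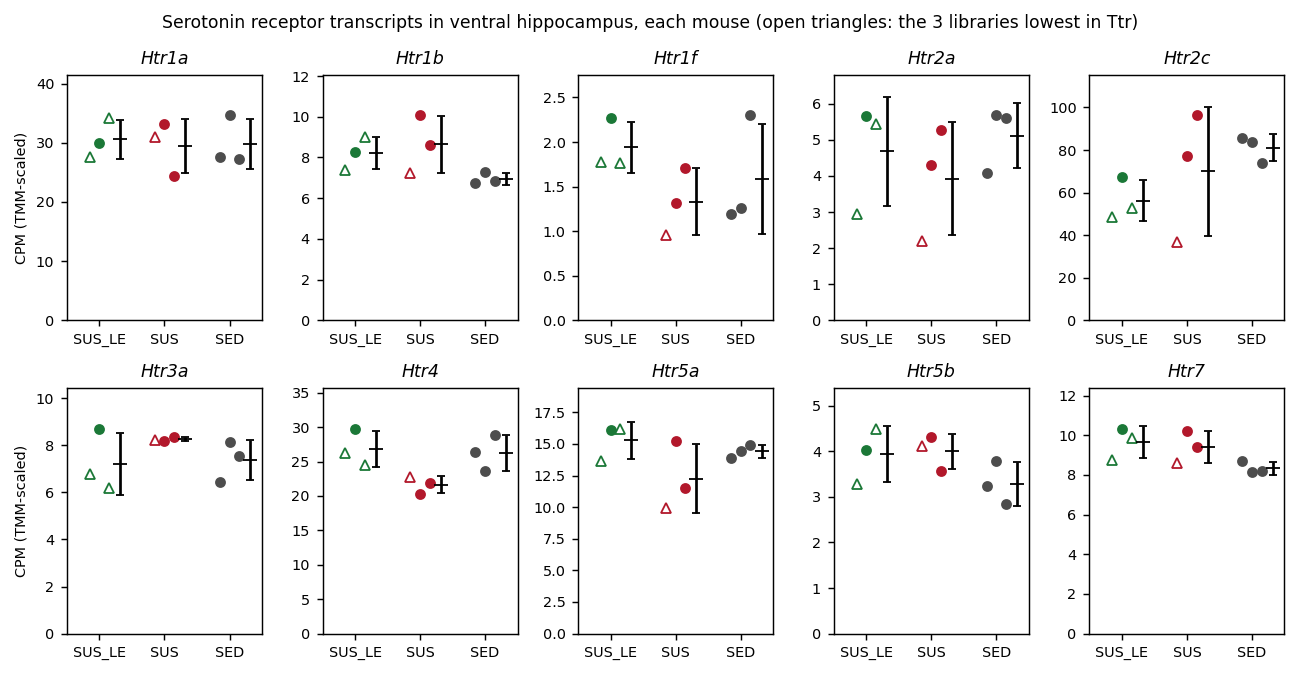
CPM of each of the 10 receptor transcripts in every mouse (points, open triangles for the 3 libraries lowest in Ttr) with the group mean ± SD (bars), SUS_LE left, SUS in the middle and SED right, each gene on its own vertical axis. Htr4 in SUS mice lay between 20.3 and 22.8 CPM, below every SUS_LE and SED mouse, and Htr2c in SUS mice ran from 36.9 to 96.2 CPM.

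Among the Gi/o-coupled receptors, Htr1a, which slows pyramidal neurons and serves as autoreceptor on raphe neurons, was the most even. It was at 27.6, 30.0 and 34.2 CPM in SUS_LE, at 31.0, 33.1 and 24.4 CPM in SUS and at 27.6, 34.6 and 27.2 CPM in SED. The 3 groups overlapped throughout, and the log2 fold change was -0.02 (SE 0.13) for SUS against SED and 0.05 (SE 0.13) for SUS_LE against SUS. Htr1b, which restrains transmitter release from axon terminals, was at 7.39, 8.25 and 8.99 CPM in SUS_LE, at 7.22, 10.1 and 8.64 CPM in SUS and at 6.74, 7.29 and 6.83 CPM in SED. All 3 SUS_LE mice were above all 3 SED mice, and 1 SUS mouse was within the SED range. Its log2 fold change was 0.31 (SE 0.15) for SUS against SED, with an unadjusted p of 0.0458 and an edgeR adjusted p of 0.368, and 0.24 (SE 0.15) for SUS_LE against SED, with an edgeR adjusted p of 0.812. The exons of Htr1b overlap those of the antisense gene D430036J16Rik, which had 23 to 55 counts a library. Since the strand setting of the counting is not given, reads from the overlapping stretch may be mixed between these genes.

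Htr1f, a Gi/o-coupled receptor, was the scarcest member with 14 to 35 counts a library. It was at 1.78, 2.27 and 1.77 CPM in SUS_LE, at 0.962, 1.32 and 1.71 CPM in SUS and at 1.19, 1.26 and 2.30 CPM in SED. All SUS_LE mice were above all SUS mice, while SED spanned nearly the whole range. The log2 fold change of SUS_LE against SUS was 0.54 (SE 0.33), with an edgeR adjusted p of 0.479. Htr5a was at 13.6, 16.1 and 16.2 CPM in SUS_LE, at 9.97, 15.3 and 11.5 CPM in SUS and at 13.9, 14.4 and 14.9 CPM in SED. Mice SUS 1 and SUS 3 were the lowest of the 9, and SUS 2 stood among the other groups. SUS_LE against SUS gave a log2 fold change of 0.32 (SE 0.13), with an unadjusted p of 0.0265 and an edgeR adjusted p of 0.298, and without SUS 2 it was 0.51 with an edgeR adjusted p of 0.0553. Htr5b, the close relative of Htr5a, was at 3.29, 4.03 and 4.49 CPM in SUS_LE, at 4.12, 4.30 and 3.56 CPM in SUS and at 3.23, 3.78 and 2.84 CPM in SED. Its groups overlapped, with SED holding the 2 lowest libraries.

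Of the Gs-coupled receptors, Htr4, which raises the excitability of hippocampal neurons, had the smallest p of all members over the 3 groups (0.00727, edgeR adjusted p 0.215). It was at 26.2, 29.8 and 24.5 CPM in SUS_LE, at 22.8, 20.3 and 21.9 CPM in SUS and at 26.3, 23.6 and 28.9 CPM in SED. All 3 SUS mice were below all 6 other mice, and SUS_LE and SED overlapped. Its log2 fold change was -0.28 (SE 0.09) for SUS against SED, with an unadjusted p of 0.00802 and an edgeR adjusted p of 0.216. For SUS_LE against SUS it was 0.31 (SE 0.09), with an unadjusted p of 0.00382 and an edgeR adjusted p of 0.169, and with no filter on low counts this edgeR adjusted p was 0.0483.

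Dentate granule cell markers stood beside Htr4 as follows. Their score, the mean log2 CPM of the 10 genes centred over the 9 libraries, was 0.20, 0.07 and -0.11 in SUS_LE, 0.03, -0.25 and -0.15 in SUS and 0.12, -0.13 and 0.22 in SED. The groups overlapped, with the lowest values in SUS, and the summed level was 390 to 444 CPM in SUS_LE, 337 to 393 CPM in SUS and 369 to 471 CPM in SED, with no marker at 0. Of the 10 markers, 0 had a positive log2 fold change for SUS against SED and 8 for SUS_LE against SUS. With this score in the model, an alternative chosen after seeing the data, Htr4 was at -0.16 (SE 0.10, edgeR adjusted p 0.537) for SUS against SED and at 0.20 (SE 0.10, edgeR adjusted p 0.379) for SUS_LE against SUS. CA2 and CA3 markers had 2 of 10 positive for SUS against SED and 7 of 10 for SUS_LE against SUS. Their score was -0.19 to 0.09 in SUS_LE, -0.09 to -0.05 in SUS and -0.01 to 0.17 in SED. CA1 markers had 6 of 8 positive for SUS against SED and 4 of 8 for SUS_LE against SUS. No such fit was made with CA markers, and the cause of the Htr4 differences was not tested.

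Htr7, the other Gs-coupled member, was at 8.76, 10.3 and 9.87 CPM in SUS_LE, at 8.59, 10.2 and 9.39 CPM in SUS and at 8.71, 8.13 and 8.18 CPM in SED. SUS_LE mice were above all SED mice by a narrow margin, and SUS overlapped with SED. The log2 fold change of SUS_LE against SED was 0.21 (SE 0.13), with an edgeR adjusted p of 0.807. Htr3a, the channel subunit, which in forebrain is found in a class of interneurons, was at 6.78, 8.70 and 6.19 CPM in SUS_LE, at 8.25, 8.19 and 8.36 CPM in SUS and at 6.46, 8.13 and 7.57 CPM in SED. The 3 SUS mice were nearly equal and above all SED mice, and SUS_LE spanned both. The log2 fold change of SUS against SED was 0.16 (SE 0.15), with an edgeR adjusted p of 0.688. The interneuron score, over 16 markers, was -0.03 to 0.02 in SUS_LE, 0.03 to 0.04 in SUS and -0.06 to -0.01 in SED, so that SUS was above both other groups there. The part of interneuron content in the Htr3a values was not tested.

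The Gq-coupled pair varied most between mice. Htr2a, the excitatory cortical receptor at which psychedelics act, had an SD of 0.47 in log2 CPM over the 9 libraries and Htr2c one of 0.45, with Htr1f at 0.39 and the other members at 0.13 to 0.23. Htr2a was at 2.94, 5.65 and 5.45 CPM in SUS_LE, at 2.20, 4.30 and 5.28 CPM in SUS and at 4.07, 5.68 and 5.61 CPM in SED. SUS 1 and SUS_LE 1 were the lowest of the 9, and the groups overlapped, with log2 fold changes of -0.38 (SE 0.32) for SUS against SED and 0.25 (SE 0.32) for SUS_LE against SUS. Without SUS 1 these Htr2a values were -0.096 and -0.031, and without SUS 3 they were -0.66 and 0.52. Htr2c was at 48.7, 67.3 and 52.6 CPM in SUS_LE, at 36.9, 77.0 and 96.2 CPM in SUS and at 85.7, 83.7 and 73.9 CPM in SED. SUS held both the lowest and the highest library, 2.61-fold apart, and all SUS_LE mice were below all SED mice. The log2 fold change was -0.53 (SE 0.34) for SUS_LE against SED, -0.21 (SE 0.34) for SUS against SED and -0.32 (SE 0.34) for SUS_LE against SUS, with edgeR adjusted p-values of 0.837, 0.845 and 0.738. Without SUS 1 the Htr2c value was 0.096 for SUS against SED and -0.62 for SUS_LE against SUS, and without SUS 3 it was -0.51 and -0.020.

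Choroid plexus content moved with Htr2c. All 18 choroid plexus markers had lower levels in SUS_LE than in SED in every mouse, as did 8.64% of all genes. The markers' median log2 fold change was -2.56. None of the markers passed the edgeR test and 7 had an unadjusted p under 0.05, beside 6.64% of all genes. Their summed level was 232 to 2355 CPM in SUS_LE, 151 to 8874 CPM in SUS and 4574 to 6635 CPM in SED. At the low end, in SUS 1, the marker Enpp2 alone was at 87.4 CPM, with Ttr at 27.4 CPM. Whether such low levels come from choroid plexus was not tested. The libraries fell into separate clusters of choroid plexus content, so no correlation is given over all 9. In SUS_LE 1, SUS_LE 3 and SUS 1, with at most 83.2 CPM of Ttr, Htr2c was at 36.9 to 52.6 CPM, and in the other 6, with at least 1509 CPM of Ttr, it was at 67.3 to 96.2 CPM. Htr2c was the only one of the 10 members whose ranges did not overlap between these sets of libraries, which was so for 4.18% of all genes, and for 2.79% with lower levels in the 3 libraries low in Ttr.

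Over the 6 libraries with more Ttr, Htr2c and Ttr correlated with a Pearson r of 0.979 (exact permutation p 0.00556, two-sided) and a Spearman rho of 0.943 (exact permutation p 0.0167). Both p-values were the same after adjustment over the 2 relations computed, with Ttr and with the summed choroid plexus list (r 0.978). The 6 libraries come from 3 groups that differ in Ttr. Without SUS 3 and SUS_LE 2, the libraries farthest from the median of Ttr, r was 0.885 over 4 libraries. A straight line through the 6 gave 6.32 CPM of Htr2c per 1000 CPM of Ttr and 58.5 CPM at a Ttr of 0, with no library more than 3.09 CPM from it. The 3 libraries low in Ttr lay below that line.

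**Figure D3:**
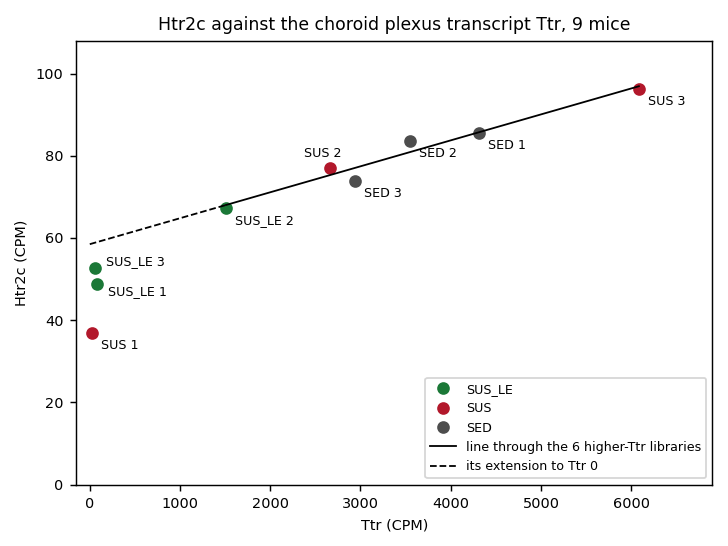
Htr2c (vertical axis, CPM) against the choroid plexus transcript Ttr (horizontal axis, CPM) in each of 9 mice, coloured by group, with the line through the 6 libraries higher in Ttr and its dashed extension to 0. The 6 libraries lie within 3.09 CPM of the line, and SUS_LE 1, SUS_LE 3 and SUS 1, at 36.9 to 52.6 CPM of Htr2c, lie below it.

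A score of choroid plexus content, the mean log2 CPM of the 18 markers centred over the libraries, was then added to the group model, so that its slope shows which genes follow it within groups. Htr2c is not in the score, which was -2.37, 0.15 and -2.68 in SUS_LE, -3.03, 1.06 and 2.17 in SUS and 1.86, 1.55 and 1.29 in SED. Htr2c rose with the score by 0.24 log2 units per unit of score (SE 0.02, edgeR adjusted p 1.9e-07), which is 2.34-fold over the range of the score, and ranked 21 of 16106 genes by p. It was the 1 member of 10 that passed, where 1.79% of genes were called, 1.58% with a positive slope. At an unadjusted p under 0.05, there were 2 of 10 members, beside 11.9% of all genes. The 18 markers that make up the score are among those called. Without SUS 1, where 0.324% of genes were called, the slope of Htr2c was 0.17 with an edgeR adjusted p of 0.0113.

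Htr2a had the next slope, 0.20 per unit of score (SE 0.06), with an unadjusted p of 0.00619 and an edgeR adjusted p of 0.166. Without SUS_LE 3 its slope was 0.26 with an edgeR adjusted p of 0.0111, so that 2 members passed, where 3.40% of genes were called, and 2 passed with no filter on low counts, where 2.04% were called. Its slope was 0.12 (SE 0.11) without SUS 1 and 0.032 (SE 0.25) without the 3 libraries lowest in Ttr. The slopes of the other 8 members lay between -0.04 for Htr1a and 0.13 for Htr1f, and their edgeR adjusted p-values were 0.543 or more. Htr4 had a slope of 0.01 (SE 0.03). The median slope of the 10 members was 0.04, against -0.00089 over all genes, and 8 of 10 were positive.

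**Figure D4:**
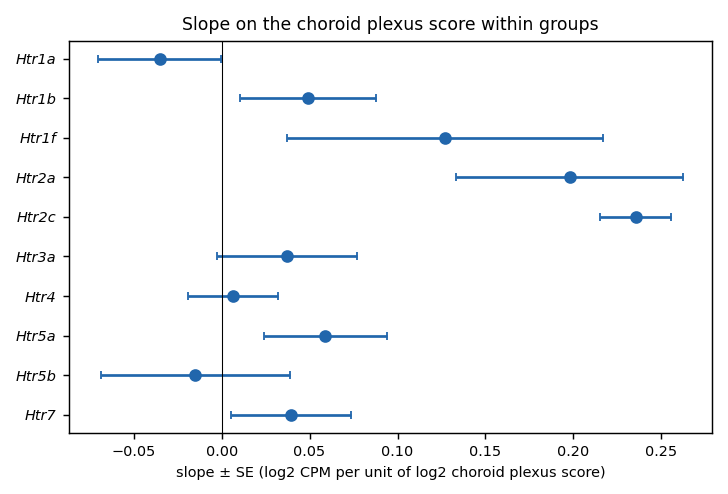
Slope of each receptor transcript on the choroid plexus score within groups (horizontal axis, log2 CPM per unit of score), as estimate ± SE over 9 libraries. Htr2c (0.24) and Htr2a (0.20) lie far to the right, and Htr2c has the smallest SE (0.02).

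With the score in the model, the log2 fold change of Htr2c was 0.21 (SE 0.10) for SUS_LE against SED, 0.04 (SE 0.07) for SUS against SED and 0.17 (SE 0.08) for SUS_LE against SUS, so all 3 turned from negative to positive. The edgeR adjusted p-values were 0.742, 0.891 and 0.297. The SE of Htr2c, 0.34 in each comparison without the score, was thus 0.07 to 0.10 with it. The score did not overlap between SUS_LE (-2.68 to 0.15) and SED (1.29 to 1.86). In that comparison, group and choroid plexus content therefore cannot be told apart. Htr4 kept its values, at -0.27 (SE 0.10) for SUS against SED and 0.32 (SE 0.10, edgeR adjusted p 0.0883) for SUS_LE against SUS. For SUS_LE against SUS, Htr5a was at 0.43 (SE 0.14, edgeR adjusted p 0.0908) and Htr2a at 0.65 (SE 0.26, edgeR adjusted p 0.188) with the score. Ependymal and motile cilia markers, which line the same ventricles, also followed the score, with 5 of 11 called, among them the ciliary regulator Foxj1 with a slope of 0.36. Their part in the Htr2c values was not tested.

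**Figure D5:**
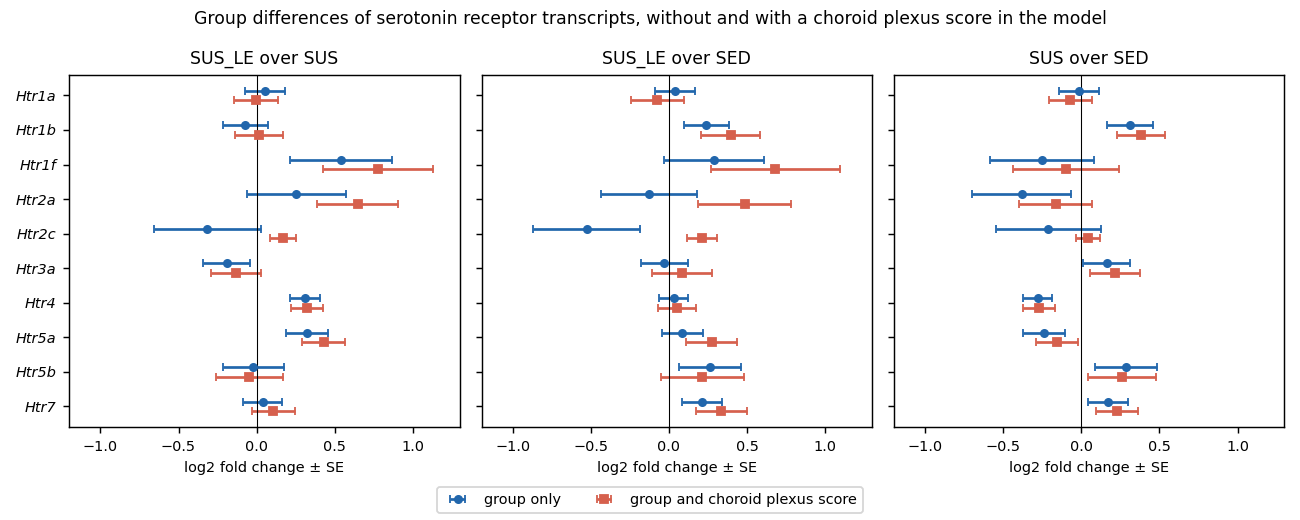
Log2 fold change ± SE of each receptor transcript in the 3 comparisons, from the model with group alone and from the model that also holds the choroid plexus score. Htr2c moved from -0.53 to 0.21 for SUS_LE against SED when the score was added, while Htr4 stayed at 0.31 and 0.32 for SUS_LE against SUS.

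The genes whose centred log2 CPM over 9 libraries was most like that of Htr2c, out of 15099 genes compared, were Prkcq, a protein kinase C, Aass, an enzyme of lysine breakdown, and Rsph4a, a radial spoke protein of motile cilia. Their root mean square differences from Htr2c were 0.10, 0.10 and 0.12 on the log2 scale, where Htr2c itself had an SD of 0.45. For Htr2a the nearest were Ngfr, the p75 neurotrophin receptor, at 0.17, Npbwr1 at 0.20 and Neu3 at 0.20. For Htr1f they were Lrrc74b at 0.18, Irak3 at 0.19 and Gm6712 at 0.20. The measure counts the size of the changes as well as their shape, so a gene that varies much more or much less than the member cannot come out near it.

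Of the other serotonin receptors, Htr6, a Gs-coupled receptor of neuronal primary cilia, averaged 4.59 ± 1.12 CPM in SUS_LE, 4.89 ± 0.344 CPM in SUS and 4.07 ± 0.927 CPM in SED, and its groups overlapped (edgeR adjusted p 0.889 for SUS_LE against SUS and 0.624 for SUS against SED). Htr1d had 0 to 13 counts a library and Htr2b 0 to 2, and Htr3b, the partner subunit of Htr3a, had 0 in all 9 libraries, which allows up to 3 counts in each. The serotonin transporter Slc6a4 had 0 to 2 counts and was at 0 in 7 libraries, and Tph2, the neuronal enzyme of serotonin synthesis, had 2 to 18.

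Genes of serotonin handling and of the receptors' signalling were taken from 6 lists of 61 genes, 52 of them tested. None passed the edgeR threshold in any comparison. At an unadjusted p under 0.05 there were 10 for SUS against SED (13.1% of all genes), 11 for SUS_LE against SUS (13.7%) and 6 for SUS_LE against SED (6.64%), and DESeq2 called 0, 2 and 0. The list for synthesis, transport and breakdown had a median log2 fold change of -0.10 for SUS_LE against SUS, with 4 of 10 tested genes positive. The lists for Gi/o, Gq and Gs transducers and for receptor partners had medians of 0.02, 0.01, 0.03 and -0.02 in the same comparison, where the median of all genes was 0.00112. For SUS_LE against SED the first list had a median of -0.15, with 4 of 10 positive. There 3 of 10 had an unadjusted edgeR p under 0.05 (6.64% of all genes) and 5 of 10 did not overlap (16.2%). The other lists had medians of 0.02, 0.03, 0.07 and 0.03 in that comparison, against 0.0085 for all genes.

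The genes of these lists with the smallest p over the 3 groups, not in this comparison alone, stood as follows for SUS_LE against SUS. Aldh2, which clears the aldehyde that monoamine oxidase makes from serotonin, averaged 36.0 ± 1.34 CPM in SUS_LE and 46.9 ± 5.26 CPM in SUS, a log2 fold change of -0.38 (SE 0.09, edgeR adjusted p 0.116, DESeq2 adjusted p 0.0207), and Maob, a monoamine oxidase, 21.9 ± 1.16 CPM in SUS_LE and 24.1 ± 2.20 CPM in SUS. Kcnj3, a subunit of the potassium channel that Gi/o-coupled receptors open, averaged 204 ± 3.02 CPM in SUS_LE and 175 ± 9.11 CPM in SUS (0.22, SE 0.05, edgeR adjusted p 0.102, DESeq2 adjusted p 0.00992). Kcnj9, another subunit of that channel, averaged 58.1 ± 3.85 CPM in SUS_LE and 68.5 ± 2.09 CPM in SUS (-0.24, SE 0.07, edgeR adjusted p 0.144). Kcnj3 and Kcnj9 thus had log2 fold changes of opposite sign. Kcnj6, a further subunit not among the genes with the smallest p, averaged 240 ± 18.9 CPM in SUS_LE and 231 ± 25.7 CPM in SUS. Adarb2, a relative of the enzymes that edit Htr2c mRNA, averaged 24.7 ± 0.523 CPM in SUS_LE and 20.9 ± 0.261 CPM in SUS (0.24, SE 0.08, edgeR adjusted p 0.199). In SED, Aldh2 averaged 45.4 ± 5.54 CPM and Maob 26.6 ± 1.46 CPM. Kcnj3 was there at 186 ± 1.63 CPM, Kcnj9 at 60.0 ± 3.95 CPM and Adarb2 at 24.2 ± 2.05 CPM.

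In the other lists, the Gq subunit Gna11 averaged 98.7 ± 3.18 CPM in SUS_LE and 105 ± 8.89 CPM in SUS, and the phospholipase Plcb4 33.3 ± 3.28 CPM in SUS_LE and 29.2 ± 3.72 CPM in SUS. The Gs-type subunit Gnal averaged 131 ± 5.04 CPM in SUS_LE and 117 ± 10.4 CPM in SUS (0.17, SE 0.06), while Creb1, the transcription factor that cAMP activates, averaged 51.0 ± 2.32 CPM in SUS_LE and 50.0 ± 1.24 CPM in SUS. Grk2, a kinase that silences active receptors, averaged 146 ± 8.74 CPM in SUS_LE and 161 ± 9.65 CPM in SUS. The edgeR adjusted p of these 5 was between 0.218 and 0.879. In SED, Creb1 averaged 56.9 ± 1.56 CPM and Gna11 92.2 ± 2.72 CPM. Plcb4 was there at 34.2 ± 1.36 CPM, Gnal at 123 ± 0.747 CPM and Grk2 at 147 ± 7.40 CPM. Slc29a4, a low-affinity serotonin transporter named here after its values were seen, was at 23.5, 24.2 and 20.6 CPM in SUS_LE, at 26.3, 34.8 and 51.3 CPM in SUS and at 47.5, 37.0 and 36.6 CPM in SED. All SUS_LE mice were below the other 6 mice, a pattern whose share among all genes was not counted. The slope of Slc29a4 on the choroid plexus score was 0.15 (SE 0.04, edgeR adjusted p 0.0790).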

How the data were processed

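Libraries were prepared from RNAiso Plus extracts of total RNA with a CORALL V2 kit, per the labels' protocols. The deposited files hold whole-number counts per gene symbol, made by the authors with fastp, STAR and Salmon on GRCm39, per the submitters' processing notes. Versions, annotation, strand setting and the handling of molecular identifiers are not given in the sources used here. All sample columns were used. The column headers number the SUS_LE libraries 2 to 4 and the labels 1 to 3, and the labels' numbers are used throughout. The 9 libraries are separate mice by their labels. Members, gene lists and tests were chosen with earlier results of these data known.

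Counts were analysed in R 4.3.3 with edgeR 4.0.16: filtering by expression (16106 genes, 99.9% of counts), TMM scaling and a robust quasi-likelihood test, fitted to every library by group alone. Log2 CPM used a prior count of 2, and 0.05 after Benjamini-Hochberg adjustment was the threshold. With 3 against 3 mice an exact permutation test of single values cannot go below 0.1. The choroid plexus score holds 18 genes and not Htr2c. DESeq2 1.42.0, other scalings and filters, a replicate block, fewer groups, choroid plexus alternatives and leaving out each library were run as alternatives. Exon lengths came from GENCODE M21 on GRCm38, promoters from RefSeq. Correlations used scipy 1.17.1. The procedure was tested on simulated data. No library was a duplicate of another in its group, with a chi-square per degree of freedom of 2.70 to 14.6. Pairs of libraries from different groups were not compared in this way.

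Named genes were the 10 members, the defining choroid plexus markers, the 2 genes of each pathway list with the smallest p over the 3 groups, Slc6a4, Tph2, Htr1d, Htr2b, Htr3b and Htr6, and for Htr2c and the 2 other most variable members the 3 genes nearest in profile. Genes outside this rule are those that passed in an alternative, Foxj1, Kcnj6, Kcnj13, Enpp2 and the antisense gene of Htr1b, all chosen after their values were seen. Counts limit Htr1f most, at 14 to 35 a library. Intervals and limits for a count of 0 cover counting error only.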

Additional observations from a re-analysis of the deposited data

How the results depend on the processing

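Over the alternatives other than leaving out a library, 284 log2 fold changes of members kept their direction and were not called, and 15 turned. These include DESeq2, whose filter gave an adjusted p to only 1 member for SUS against SED and 1 for SUS_LE against SUS. The other members were counted there as not called, although they had no adjusted p to set against the threshold. With no filter on low counts, 1 member was called for SUS_LE against SUS (Htr4, edgeR adjusted p 0.0483, where 1.59% of genes were called) and 1 over the 3 groups (2.57% of genes), and 2 for the choroid plexus slope (2.04%). Leaving out single libraries gave 1 to 2 for the slope, with 0.324% to 3.40% of genes called. Pathway genes called for SUS_LE against SUS numbered 2 with DESeq2 (3.57% of genes with an adjusted p), 3 with no filter (1.59%), 4 with the choroid plexus score (Kcnj3, Kcnj9, Gnas and Dlg4, where 2.65% of genes were called) and 0 to 2 without single libraries, the 2 being without SUS 2 (1.12%). For SUS_LE against SED they numbered 1 with no filter (0.808%), 2 with only these groups in the fit (Slc29a4 and Aldh2, 1.52%) and 0 to 1 without single libraries, the 1 being without SUS 3 (0.306%). The causes were not tested.

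With the choroid plexus score, log2 fold changes turned to 0.043 for Htr2c in SUS against SED, to -0.00495 for Htr1a, 0.016 for Htr1b and 0.17 for Htr2c in SUS_LE against SUS, and to -0.075 for Htr1a, 0.48 for Htr2a, 0.21 for Htr2c and 0.084 for Htr3a in SUS_LE against SED. Without the 3 libraries lowest in Ttr they turned to 0.092 for Htr2c in SUS against SED, 0.077 for Htr3a and 0.038 for Htr5b in SUS_LE against SUS, and 0.14 for Htr2a and 0.24 for Htr3a in SUS_LE against SED. With the dentate score they turned to 0.085 for Htr1b and 0.14 for Htr5b in SUS_LE against SUS. Without single libraries they ran, for SUS against SED, from -0.11 to 0.11 (Htr1a), -0.48 to 0.12 (Htr1f) and -0.51 to 0.10 (Htr2c). For SUS_LE against SUS they ran from -0.071 to 0.14 (Htr1a), -0.19 to 0.047 (Htr1b), -0.031 to 0.52 (Htr2a), -0.13 to 0.092 (Htr5b) and -0.020 to 0.10 (Htr7), and for SUS_LE against SED from -0.049 to 0.16 (Htr1a), -0.29 to 0.12 (Htr2a), -0.19 to 0.069 (Htr3a) and -0.051 to 0.10 (Htr4).

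The Htr2c slope was 0.15 with Ttr alone as the score and 0.30 (edgeR adjusted p 0.0218) without the 3 libraries lowest in Ttr. With the replicate number as a block, 0 members were called in each comparison, and same-numbered mice deviated together with r of -0.12 to 0.18, so the numbers were not taken to pair them. Both rest on the labels' numbers for SUS_LE, which differ by 1 from those in the column headers.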
